A study of Mus musculus with 2 samples.

Results

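Osteopontin (*Spp1*) and 6 genes for proteins that build, cross-link or cut the extracellular matrix (*Fn1*, *Ecm1*, *F13a1*, *Hpse*, *Thbs1* and *Tgm2*) were followed in single alveolar macrophages (AMs). These 7 genes were chosen from their measured levels in the libraries with and without tumor, so that the difference between the libraries is given below as a description, without a test. Each library lists 32285 Ensembl gene identifiers, 32158 of them with a symbol found here, and all 7 members were among these. The study compared AMs from lungs of C57BL/6 mice at postnatal week 10, either bearing an orthotopic lung tumor (Tumor-AM, 1 library) or injected with vehicle (Control-AM, 1 library). The tumor cells were Lewis lung carcinoma cells (LLC, a mouse lung cancer line of the same strain) that carried the red fluorescent protein tdTomato, and they were placed with Matrigel, itself a matrix protein mixture, through the chest wall into the left lung. The methods state that female adults were used for lung harvest and that tumor-bearing and control animals were bred separately, and give neither the number of animals behind each single-cell library nor the day of its harvest. AMs were sorted as CD45+ autofluorescent cells that were positive for Siglec-F and F4/80. With 1 library per condition, animal, cage, sort and library cannot be told apart from the tumor, and all intervals below are exact 95% intervals that cover counting error only.

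Osteopontin is a secreted glycoprotein that binds integrins and CD44, and macrophages of injured or fibrotic lungs are known to make it. Fibronectin (*Fn1*) is laid down as fibrils to which cells attach through integrins, and transglutaminase 2 (*Tgm2*) and the A subunit of coagulation factor XIII (*F13a1*) join matrix and fibrin proteins by covalent cross-links. Heparanase (*Hpse*) cuts the heparan sulfate chains that hold growth factors in the matrix, extracellular matrix protein 1 (*Ecm1*) is a secreted glycoprotein, and thrombospondin 1 (*Thbs1*) is a matricellular protein known as an activator of latent TGF-β.

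Barcodes with at least 500 detected genes and at most 10% of mitochondrial molecules were kept, which left 6185 of 8485 barcodes in Control-AM and 7666 of 9175 in Tumor-AM. These held 64850143 and 68801889 unique molecular identifiers (UMIs, 1 for each captured 3′ end of an mRNA), and the median cell had 10370 and 8264 UMIs. The 2 libraries shared 25 barcode sequences, 17 of which were kept in both. All 12 AM markers examined exceeded 10 UMIs per 1000000 (counts per 1000000, CPM) in each library, and their summed level was 18155 CPM in Control-AM and 15840.2 CPM in Tumor-AM. Among markers of other cell types, those of neutrophils summed to 70.3 CPM in Control-AM and 123 CPM in Tumor-AM, mostly from *S100a8* (45.2 and 103 CPM), with the defining *Retnlg* at 0.771 and 0 CPM. Epithelial markers summed to 125 and 41.3 CPM, mostly from *Epcam* and *Cdh1*. Markers of fibroblasts stood at 0.771 CPM in Control-AM and 32.4 CPM in Tumor-AM, and those of monocytes at 8.10 and 17.9 CPM. Those of interstitial macrophages summed to 0.925 and 39.7 CPM. In Tumor-AM most of this came from *C1qa*, *C1qb* and *C1qc* (9.53, 20.6 and 8.55 CPM). The other markers of that list, *Folr2* and *Lyve1*, were at 0.0145 and 1.03 CPM there. Platelet markers were at 3.82 and 5.54 CPM, mostly from *Pf4* (3.30 and 5.31 CPM), and *Gp9* and *Gp1bb* had 0 UMIs in both libraries. Cells were taken as carrying markers of another type when they had UMIs of at least 2 markers of 1 other type (neutrophil and epithelial markers not used) or under 3000 CPM of summed AM markers, and there were 51 such cells in Control-AM and 188 in Tumor-AM.

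The members lie on 5 chromosomes (GRCm38, the assembly also called mm10). *Spp1* (ENSMUSG00000029304) spans chr5:104435118-104441050 on the plus strand, and *Hpse* (ENSMUSG00000035273) spans chr5:100679484-100719716 on the minus strand. *Fn1* (ENSMUSG00000026193) lies at chr1:71585520-71653200, *Ecm1* (ENSMUSG00000028108) at chr3:95734147-95739569 and *F13a1* (ENSMUSG00000039109) at chr13:36867178-37050244, all on the minus strand. *Thbs1* (ENSMUSG00000040152) occupies chr2:118111876-118127133 on the plus strand and *Tgm2* (ENSMUSG00000037820) chr2:158116402-158146436 on the minus strand. The protein-coding gene *Rprd1b* runs over the last exon of *Tgm2* on the opposite strand and had 1907 and 1738 UMIs of its own over all barcodes of Control-AM and Tumor-AM. Promoters of 4 of the 7 members (*Spp1*, *Ecm1*, *F13a1* and *Hpse*) were matched by symbol in RefSeq (GRCm38.p6). The 250 bases before the start of transcription are shown for *Spp1* and *Ecm1*, whose ratios between the libraries were close (given below) and which held matches to the motifs searched, with those matches in capitals.
Spp1, chr5:104434861-104435110, plus strand: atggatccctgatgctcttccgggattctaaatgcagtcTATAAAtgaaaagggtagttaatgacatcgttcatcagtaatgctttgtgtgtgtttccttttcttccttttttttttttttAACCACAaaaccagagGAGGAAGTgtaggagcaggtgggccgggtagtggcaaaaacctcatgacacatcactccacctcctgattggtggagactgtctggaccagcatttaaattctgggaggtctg
Ecm1, chr3:95739570-95739819, minus strand: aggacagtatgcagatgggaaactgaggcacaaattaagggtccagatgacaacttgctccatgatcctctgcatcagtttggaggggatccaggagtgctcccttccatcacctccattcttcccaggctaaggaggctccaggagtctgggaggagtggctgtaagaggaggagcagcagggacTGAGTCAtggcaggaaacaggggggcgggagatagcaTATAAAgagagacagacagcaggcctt
Letters of 5 known motifs were searched on both strands, without overlap between matches of different motifs, and their frequency was taken over 32851 mouse promoter windows of this length. The RUNX motif, searched as AACCACA, was present in 4.40% of all windows and lay 129 to 123 bases before the start of *Spp1*. The PU.1 motif, searched as GAGGAAGT, was present in 2.44% of windows and lay 113 to 106 bases before the start of *Spp1*. The AP-1 motif, searched as TGANTCA, was present in 6.75% of windows and lay 64 to 58 bases before the start of *Ecm1*, where its letters match on both strands. A TATA box, searched as TATAAA, was present in 12.4% of windows and lay 27 to 22 bases before the start of *Ecm1*, and 211 to 206 bases before that of *Spp1*. An E-box, searched as CACGTG, was present in 6.02% of windows and in neither of these. The windows of *F13a1* and *Hpse* held none of these letter strings.

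*Spp1* had the highest level of the members in both libraries. It stood at 567 CPM (561 to 573) in Control-AM and at 2459 CPM (2447 to 2471) in Tumor-AM. In order of level over all genes, it moved from place 246 in Control-AM to place 34 in Tumor-AM. The ratio of Tumor-AM over Control-AM was 4.33-fold (4.29 to 4.38), a log2 ratio of 2.12. *Fn1* stood at 359 CPM (354 to 364) in Control-AM and at 918 CPM (911 to 925) in Tumor-AM, a ratio of 2.56-fold (2.52 to 2.60). It was thus already among the more abundant transcripts of AMs without tumor, as was *Spp1*.

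*Ecm1* was far lower than *Spp1* in each library, with 18.3 CPM (17.3 to 19.4) in Control-AM and 87.8 CPM (85.6 to 90.0) in Tumor-AM. Its ratio of 4.80-fold (4.51 to 5.11) was close to that of *Spp1*. *Thbs1* was the rarest member in Tumor-AM, with 31 UMIs or 0.478 CPM (0.325 to 0.679) in Control-AM and 789 UMIs or 11.5 CPM (10.7 to 12.3) in Tumor-AM. The ratio was 24.0-fold (16.8 to 35.6), but the Control-AM value came from 5 cells, 1 of which held 21 UMIs. With cells weighted equally, by averaging CPM values of cells, the log2 ratio of *Thbs1* was 3.45 in place of 4.58. With cells of at least 1000 genes and at most 5% mitochondrial UMIs it was 6.65 (5.61 to 7.97), from 7 and 763 UMIs.

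The cross-linking enzymes differed from each other. *F13a1* was almost undetected in Control-AM, with 25 UMIs or 0.386 CPM (0.249 to 0.569) in 14 cells. It reached 2467 UMIs or 35.9 CPM (34.5 to 37.3) in Tumor-AM, and its ratio of 93.0-fold (62.9 to 144) was the highest of the 12936 genes tested, those at 10 UMIs or more in both libraries. *Tgm2*, in contrast, stood at 364 CPM (359 to 369) in Control-AM and 449.9 CPM (445 to 455) in Tumor-AM. This ratio of 1.24-fold (1.22 to 1.26) was the smallest of the members. Heparanase followed *F13a1*, with 47 UMIs or 0.725 CPM (0.533 to 0.964) in Control-AM and 2006 UMIs or 29.2 CPM (27.9 to 30.5) in Tumor-AM, a ratio of 40.2-fold (30.1 to 54.9). By ratio, *Hpse* was in place 7, *Thbs1* in place 20, *Ecm1* in place 180, *Spp1* in place 205, *Fn1* in place 397 and *Tgm2* in place 1932 of those 12936 genes.

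**Figure D1:**
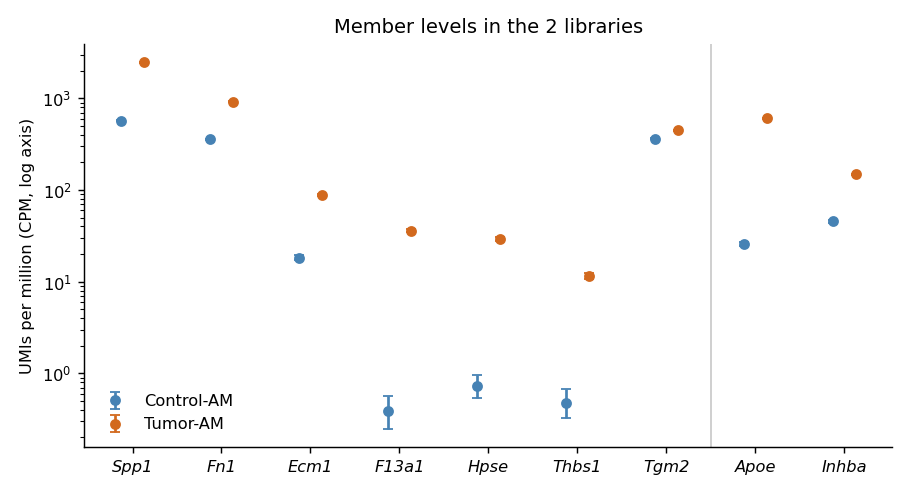
Level of each member, and of *Apoe* and *Inhba*, in Control-AM and Tumor-AM (CPM, log axis). Points are the summed UMIs of the kept cells and bars the exact Poisson intervals, which are smaller than the points for the abundant genes. *F13a1*, *Hpse* and *Thbs1* lie below 1 CPM in Control-AM and above 10 CPM in Tumor-AM, whereas *Tgm2* lies near 400 CPM in both.

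In all, 6 of the 7 members were at least 2-fold higher in Tumor-AM and none was 2-fold lower. Of all 12936 genes tested, 4.3% were at least 2-fold higher and 5.16% at least 2-fold lower, and since the members were selected with this contrast known, nothing is read from that difference. The median log2 ratio was 2.26 over the members, in *Ecm1*, and -0.07 over all genes tested. Without the cells that carried markers of another type, *Thbs1* stood at 5.67 CPM in Tumor-AM and had 7 UMIs in Control-AM (log2 ratio 5.71, 4.65 to 7.03), below the 10 UMIs needed to be counted among the genes tested. The log2 ratios of the other members without those cells were 2.06 for *Spp1*, 1.36 for *Fn1*, 2.20 for *Ecm1*, 6.99 for *F13a1*, 5.29 for *Hpse* and 0.32 for *Tgm2*. The ratios of these 6 members thus changed by less than 1.5 times without such cells, and that of *Thbs1* was higher by more than this. With cells holding at least 2 neutrophil or 2 epithelial markers left out as well, an alternative chosen after seeing the data, 4708 and 6812 cells were left and the log2 ratios were 2.08 for *Spp1*, 1.39 for *Fn1*, 2.18 for *Ecm1*, 6.52 for *F13a1*, 4.91 for *Hpse*, 0.33 for *Tgm2* and 5.17 for *Thbs1* (4.11 to 6.49, from 7 UMIs in Control-AM).

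The share of cells with a UMI was compared after each cell was thinned to 3800 UMIs, which left 5590 cells of Control-AM and 6937 of Tumor-AM and left out 595 and 729 shallower cells. *Spp1* was seen in 65.7% of thinned cells (64.4 to 67.0) in Control-AM and in 84.6% (83.7 to 85.4) in Tumor-AM. Unthinned, these shares were 81.0% and 91.1%. The median cell held 1 *Spp1* UMI in Control-AM and 4 in Tumor-AM, and the cell at the 90th percentile held 5 and 20. Cells with 20 or more *Spp1* UMIs made up 0.519% of Control-AM and 10.6% of Tumor-AM. The variance over the mean was 4.88 in Control-AM and 25.2 in Tumor-AM, where 1 would be counting noise alone.

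*Fn1* was detected in 50.7% of thinned cells (49.4 to 52.0) in Control-AM and in 73.0% (72.0 to 74.1) in Tumor-AM (unthinned, 65.4% and 80.6%). *Tgm2* was seen in 67.8% (66.6 to 69.0) and 74.3% (73.3 to 75.4), and in 87.8% and 87.7% unthinned. Its variance over the mean, 1.38 in Control-AM and 1.59 in Tumor-AM, was the closest to counting noise of the 3 abundant members. *Ecm1* was found in 5.78% (5.18 to 6.42) and 19.2% (18.3 to 20.1) of thinned cells, and in 13.5% and 30.6% unthinned. *F13a1* was seen in 0.125% (0.0504 to 0.258) and 9.93% (9.24 to 10.7), and *Hpse* in 0.250% (0.137 to 0.420) and 7.42% (6.82 to 8.07). Their unthinned shares were 0.226% and 17.0% for *F13a1* and 0.598% and 14.0% for *Hpse*. *Thbs1* was seen in 1 thinned cell of Control-AM and in 1.46% (1.19 to 1.77) of Tumor-AM, or in 0.0808% and 2.24% unthinned.

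**Figure D2:**
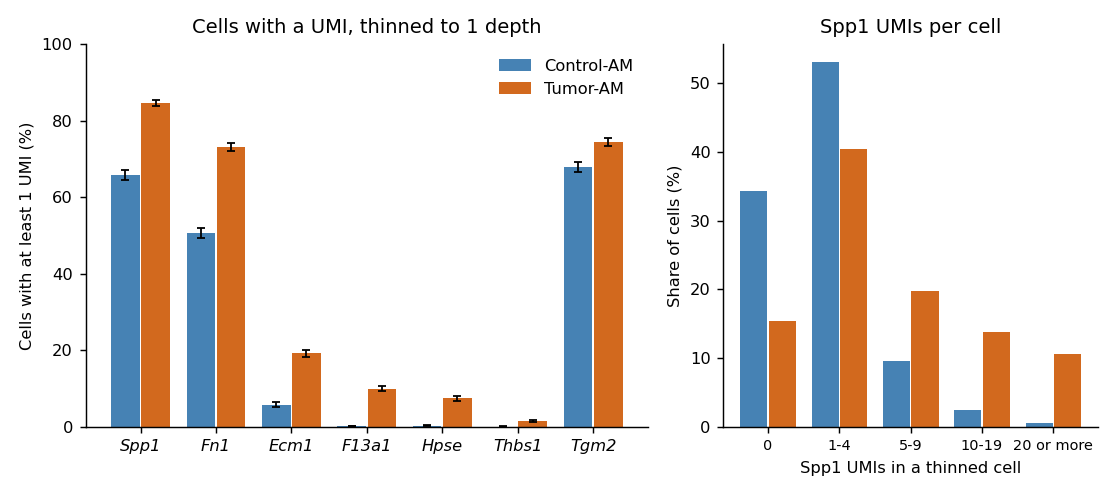
Left, share of cells with at least 1 UMI of each member (%) after thinning to 3800 UMIs, with exact binomial intervals. Right, share of thinned cells (%) by number of *Spp1* UMIs. *Spp1*, *Fn1* and *Tgm2* are seen in most cells of Tumor-AM, and 10.6% of its cells hold 20 or more *Spp1* UMIs against 0.519% in Control-AM.

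As a measure of free RNA, cells with at least 2 markers of endothelial, T or B cells and under 3000 CPM of AM markers were used, 14 in Control-AM and 13 in Tumor-AM, with median depths of 3840.5 and 5039 UMIs against 10370 and 8264 in all kept cells. *Spp1* and *Fn1* were each seen in 0 of 14 and 1 of 13 of these cells (7.69%, 0.195 to 36.0), and *F13a1* and *Hpse* in none. *Apoe*, used below to divide the cells, was seen in 2 of 14 (14.3%, 1.78 to 42.8) in Control-AM, above its unthinned share of 7.34% in all cells, and in 3 of 13 (23.1%, 5.04 to 53.8) in Tumor-AM, below its share of 37.1%. *Ecm1* was seen in 3 of 14 such cells of Control-AM (21.4%, 4.66 to 50.8), above its unthinned share of 13.5% in all cells, so that its presence in Control-AM is not read as expression by AMs. In Tumor-AM, *Ecm1* was seen in 1 of 13 of them. *Thbs1* was seen in 2 of 13 in Tumor-AM (15.4%, 1.92 to 45.4), above its share of 2.24%, and *Tgm2* in 3 of 14 and 6 of 13. Endothelial cells are known to express both genes, but whether the cells seen with them were endothelial was not tested. These cells thus give no clear measure of the background of *Thbs1* and *Tgm2*.

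The members differed in how far their UMIs were concentrated. In Tumor-AM, the 76 cells with most UMIs of a gene, 1% of the cells, held 83.5% of the UMIs of *Thbs1*, 24.1% of those of *Hpse*, 18.2% of *F13a1*, 16.3% of *Spp1*, 16.0% of *Ecm1*, 6.78% of *Fn1* and 4.66% of *Tgm2*. When the 1% of cells with most UMIs of the gene were left out of each library, *Spp1* stood at 512 and 2099 CPM, *Ecm1* at 14.9 and 75.0 CPM and *Tgm2* at 353 and 437 CPM. *F13a1*, *Hpse* and *Thbs1* were then at 0 UMIs in Control-AM and at 29.7, 22.6 and 1.92 CPM in Tumor-AM. No ratio is taken from these, since fewer than 61 cells of Control-AM, the 1% left out, held a UMI of each of the 3 genes. Counted per thinned cell, the median number of members detected was 2 in Control-AM and 3 in Tumor-AM. Cells with 5 or more members made up 0.0537% of Control-AM (3 cells) and 4.99% of Tumor-AM (346 cells), among them 2 cells with all 7.

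Genes of the same pathways were taken from 6 lists with 122 genes, of which 70 were among the genes tested. The other bone and tooth matrix glycoproteins of the osteopontin family, *Ibsp*, *Dmp1*, *Dspp* and *Mepe*, were at 0 UMIs in both libraries. Among receptors for osteopontin and fibronectin, 1 of 7 tested genes was at least 2-fold higher and none lower, with a median log2 ratio of 0.11, against 4.3% higher, 5.16% lower and a median of -0.07 over all genes tested. The osteopontin receptor *Cd44* stood at 1734 CPM in Control-AM and 1870.3 CPM in Tumor-AM, and the integrin chains *Itgb1* and *Itgb5* at 277 and 293 CPM and at 104 and 139 CPM. These 3, the most abundant of the list, had log2 ratios of 0.11, 0.08 and 0.42. The integrin chains *Itgb3*, *Itgb6*, *Itgb8*, *Itga8* and *Itga9*, several of which form osteopontin receptors, had 0 to 10 UMIs in each library. Receptors that bind thrombospondin or clear matrix included no gene past 2-fold among 8 tested (median log2 ratio 0.02). Of these, the thrombospondin receptor *Cd47* was at 821 and 810.1 CPM, the chaperone *Calr* at 543 and 594 CPM and the mannose receptor *Mrc1*, an AM marker, at 855 and 712 CPM.

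Coagulation, fibrinolysis and cross-linking genes included 3 of 13 tested that were at least 2-fold higher and 1 that was lower (median log2 ratio 0.11). The coagulation factor *F7* was at 381 and 432 CPM, and *Anxa2* and *S100a10*, which together bind plasminogen at the cell surface, were at 1247 and 1333 CPM and at 1107 and 1087 CPM. Among genes of heparan sulfate and hyaluronan turnover, 3 of 21 tested were at least 2-fold higher and 1 was lower (median log2 ratio 0.37). The lysosomal enzyme *Hexa* stood at 476 and 608 CPM, and the heparan sulfate proteoglycan *Sdc3* at 129 and 211 CPM. The proteoglycan *Sdc4*, named here after its value was seen, stood at 0.802 and 21.8 CPM, a log2 ratio of 4.77. Other matrix and matricellular genes had the highest median, 0.85, with 8 of 21 at least 2-fold higher and none lower. Its abundant members moved little, with *Tgfbi* at 431 and 581 CPM, *Lgals1* at 632 and 577 CPM and *Lgals3* at 3047 and 2765 CPM. The leading ratios, also named after they were seen, were those of *Col3a1* (0.185 and 11.9 CPM) and *Dcn* (0.386 and 14.0 CPM), which are fibroblast markers as well, and the fibroblast marker *Lum* was at 0 and 5.52 CPM. The fibroblast collagen *Col1a1* had 3 and 10 UMIs. Over all 6 lists, 15 of 70 genes were at least 2-fold higher, 2 were lower, and the median log2 ratio was 0.21, beside the same 4.3%, 5.16% and -0.07 over all genes tested.

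**Figure D3:**
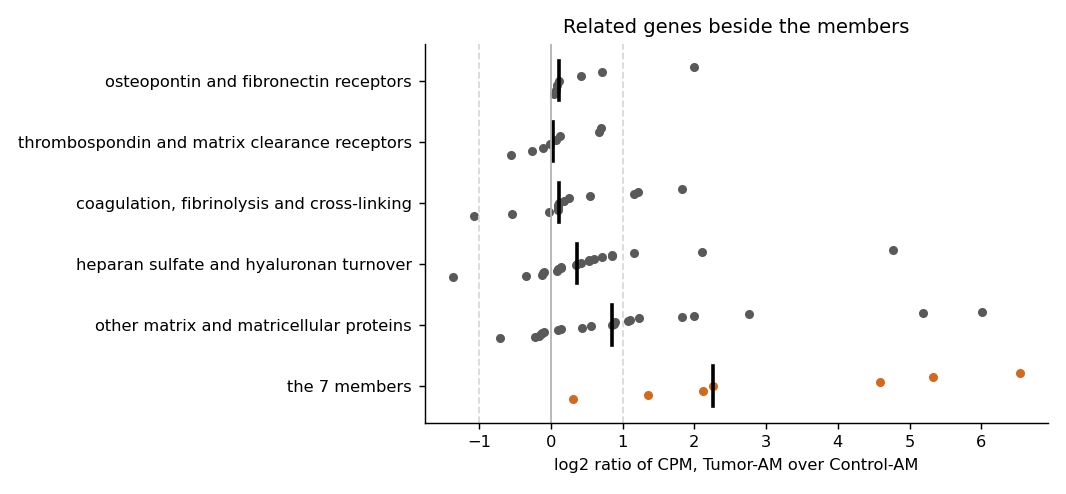
Log2 ratio of CPM, Tumor-AM over Control-AM, for the tested genes of each list (points) and the 7 members, with the median of each list as a black bar and dashed lines at 2-fold. Receptor genes gather near 0 (medians 0.11 and 0.02), whereas the matrix protein list has a median of 0.85 and the members one of 2.26.

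*Apoe*, the gene for the lipid carrier apolipoprotein E, and *Inhba*, the gene for the activin A subunit, were used as anchors for co-expression. *Apoe* stood at 25.6 CPM in Control-AM and 603 CPM in Tumor-AM, and *Inhba* at 45.6 and 148 CPM. Among thinned cells of Tumor-AM, 2017 had an *Apoe* UMI and 4920 had none. *Spp1* was at 1616 CPM in cells without *Apoe* and at 3521 CPM in cells with it, a log2 ratio of 1.12 (1.10 to 1.15). *Thbs1* was at 1.82 and 28.1 CPM (log2 ratio 3.95, 3.42 to 4.51) and *Hpse* at 12.0 and 55.4 CPM (2.20, 1.97 to 2.44). *Ecm1* was at 51.9 and 148 CPM (1.51, 1.39 to 1.64), and *F13a1* at 23.4 and 65.6 CPM (1.49, 1.30 to 1.67). *Fn1* differed less, with 787 and 1269 CPM (0.69, 0.65 to 0.73). *Tgm2* did not differ beyond counting error, with 466 and 454 CPM (-0.04, -0.10 to 0.02). Hence 5 of the 7 members were at least 2-fold higher in cells with *Apoe* and none was 2-fold lower. Of 10559 genes tested in the same way, 2.15% were at least 2-fold higher and 1.49% at least 2-fold lower. Since the members were chosen with earlier results of these data known, nothing is read from that difference either.

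The levels also followed the number of *Apoe* UMIs. Over cells of Tumor-AM with 0, 1 to 2, 3 to 9 and 10 or more *Apoe* UMIs, *Spp1* was at 1616, 2869, 3754 and 5833 CPM. *Ecm1* was at 51.9, 110.3, 147 and 316 CPM in the same classes, *Hpse* at 12.0, 38.2, 61.6 and 117 CPM and *Thbs1* at 1.82, 16.9, 27.1 and 80.4 CPM. These 4 members were thus highest in the cells richest in *Apoe*. *F13a1* (23.4, 60.9, 71.0 and 73.1 CPM) differed little among the classes with *Apoe*, and *Fn1* (787, 1224, 1378 and 1190.5 CPM) was highest in the class with 3 to 9 UMIs. The class with 10 or more *Apoe* UMIs held 252 cells, with a median of 12528.5 UMIs before thinning against 8547 in cells without *Apoe*. Its median AM marker level was 8496 CPM against 16785 CPM, the complement gene *C1qb* stood at 222 against 3.21 CPM, and 25.8% of its cells against 1.12% carried markers of another type. Without all cells that carried such markers, the log2 ratios of cells with *Apoe* over cells without were 1.09 for *Spp1*, 1.38 for *Ecm1*, 2.16 for *Hpse*, 1.52 for *F13a1*, 0.71 for *Fn1*, 3.46 for *Thbs1* and -0.02 for *Tgm2*. The value of *Thbs1* moved by more than 1.5 times with cells thinned to 2000 UMIs (2.92) and with cells of 3 or more *Apoe* UMIs (4.53).

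**Figure D4:**
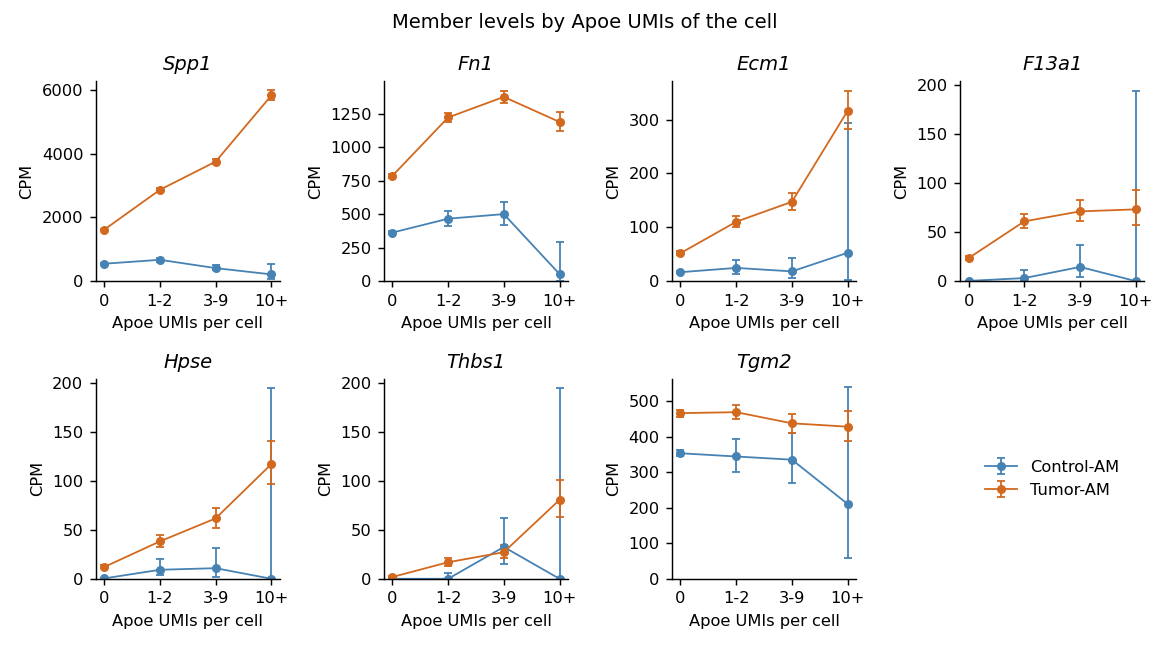
Level of each member (CPM, thinned cells) by the number of *Apoe* UMIs of the cell, in Control-AM and Tumor-AM, with exact Poisson intervals. In Tumor-AM *Spp1* goes from 1616 to 5833 CPM over the classes and *Tgm2* stays between 428 and 469 CPM. The last class of Control-AM holds 5 cells, hence its wide intervals.

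In Control-AM, 250 thinned cells had an *Apoe* UMI and 5340 had none. *Spp1* was at 583 CPM in cells with *Apoe* and 546 CPM in cells without, a log2 ratio of 0.10 (-0.03 to 0.22). In a second random thinning, an alternative chosen after seeing the data, this ratio was -0.14 (-0.28 to -0.0038). *Fn1* was at 468 and 363 CPM (0.37, 0.23 to 0.51) and *Tgm2* at 339 and 353 CPM (-0.06, -0.23 to 0.10, and 0.11 in the second thinning). Over all cells with *Apoe*, a higher level of *Spp1* was thus not detectable in Control-AM, where a single *Apoe* UMI is not read as expression by the cell. The classes lay on either side of the cells without *Apoe*. *Spp1* was at 669 CPM (607 to 734) in 172 cells with 1 to 2 *Apoe* UMIs, and at 407 CPM (336 to 490) in 73 cells with 3 to 9. The difference between the libraries was not tested. *F13a1* and *Hpse* had 6 and 9 UMIs in the 250 cells with *Apoe*, against 4 and 8 UMIs in the 5340 cells without. Of the former, 1 cell, which also held all 9 *Thbs1* UMIs and carried markers of another type, held 3 UMIs of *F13a1* and 2 of *Hpse*. Without cells of other types, likewise an alternative chosen after seeing the data, the UMIs beside *Apoe* were 2 and 7, and in the second thinning 4 and 1, so that no relation to *Apoe* is read for these genes in Control-AM.

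The members also differed between the libraries in cells with no *Apoe* UMI after thinning. *Apoe* was seen in 4.47% of thinned cells in Control-AM and 29.1% in Tumor-AM, against 7.34% and 37.1% unthinned. This class can thus hold cells whose *Apoe* UMIs were lost in thinning, in Tumor-AM more than in Control-AM. Among these, *Spp1* stood at 546 CPM in Control-AM and 1616 CPM in Tumor-AM (log2 ratio 1.57, 1.53 to 1.60), *Fn1* at 363 and 787 CPM (1.12, 1.08 to 1.16) and *Ecm1* at 16.6 and 51.9 CPM (1.65, 1.47 to 1.83). *F13a1* had 4 and 438 UMIs (6.89, 5.53 to 8.78) and *Hpse* 8 and 225 UMIs (4.93, 3.93 to 6.16) in these cells. *Thbs1* had 0 UMIs in 5340 cells of Control-AM and 34 UMIs in 4920 cells of Tumor-AM. In the second random thinning the Control-AM UMIs were 3 for *F13a1*, 12 for *Hpse* and 5 for *Thbs1*, and the log2 ratio of *Hpse* was 4.42. The ratios of these 3 genes within this class thus depend on the draw, while those of *Spp1* and *Fn1* were 1.53 and 1.14 in the second one. In cells with neither *Apoe* nor *Inhba*, the log2 ratio of *Spp1* was 1.48 (1.45 to 1.51).

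Cells with *Inhba* showed a smaller difference. In Tumor-AM, 1455 thinned cells had an *Inhba* UMI and 5482 had none, and *Spp1* was at 2641 CPM in the former and 2044 CPM in the latter, a log2 ratio of 0.37 (0.34 to 0.40). *Tgm2* was at 562 and 436 CPM, with the same log2 ratio of 0.37 (0.31 to 0.42), so that it stood higher beside *Inhba* but not beside *Apoe*. *Fn1* was at 1077 and 887 CPM (0.28, 0.24 to 0.32), *Hpse* at 29.1 and 23.5 CPM (0.31, 0.04 to 0.57) and *F13a1* at 41.2 and 34.2 CPM (0.27, 0.05 to 0.49). With cells thinned to 2000 UMIs the log2 ratio of *Hpse* was 0.00273, so that its difference depended on the thinning. *Ecm1*, at 84.6 and 78.5 CPM (0.11, -0.04 to 0.26), and *Thbs1*, at 11.0 and 9.02 CPM (0.29, -0.15 to 0.71), had intervals that included 0. None of the 7 members was 2-fold higher or lower beside *Inhba*. Without cells that carried markers of another type, the log2 ratio of *Thbs1* was 0.998. Of 10190 genes tested, 0.363% were at least 2-fold higher and 0.236% at least 2-fold lower in cells with *Inhba*. Over cells of Tumor-AM with 0, 1 to 2, 3 to 9 and 10 or more *Inhba* UMIs, *Tgm2* was at 436, 537, 592 and 868 CPM and *Spp1* at 2044, 2531, 2829 and 3279 CPM, with 37 cells in the last class.

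In Control-AM, 344 thinned cells had an *Inhba* UMI. *Spp1* was at 812 CPM in them and at 530.3 CPM in the others (log2 ratio 0.61, 0.52 to 0.71), *Fn1* at 524 and 357 CPM (0.55, 0.44 to 0.67) and *Tgm2* at 485 and 344 CPM (0.50, 0.38 to 0.61). The 3 abundant members were thus higher beside *Inhba* in both libraries. The AM marker *Chil3* was at 17193 CPM in cells with *Inhba* and 11213 CPM in the others in Control-AM, and at 11129 and 10653 CPM in Tumor-AM. *Marco*, a scavenger receptor of AMs, was lower beside *Inhba*, at 415 and 599.5 CPM (-0.53, -0.66 to -0.41) in Control-AM and at 178 and 229 CPM in Tumor-AM, and *Siglecf* was at 128 and 141 CPM in Control-AM (-0.14, -0.37 to 0.09).

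**Figure D5:**
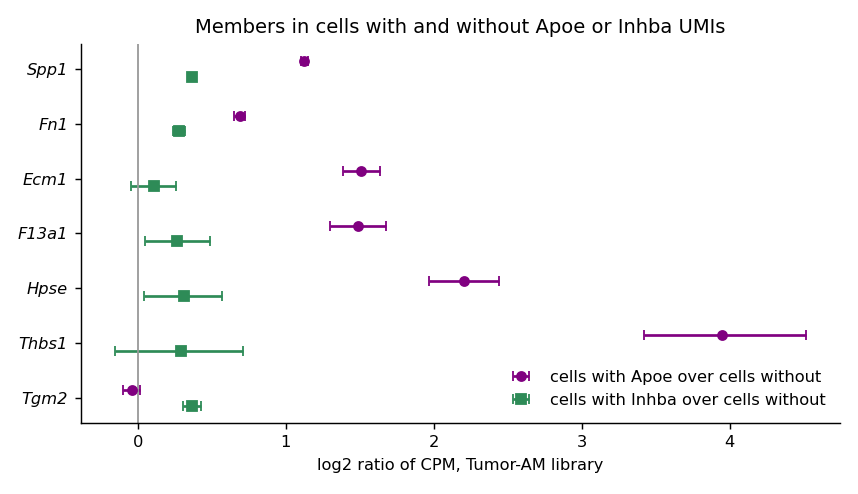
Log2 ratio of each member in Tumor-AM cells with an *Apoe* UMI over cells without (circles) and with an *Inhba* UMI over cells without (squares), with exact conditional binomial intervals. The ratios beside *Apoe* range from -0.04 for *Tgm2* to 3.95 for *Thbs1*, and those beside *Inhba* from 0.11 to 0.37.

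Both anchors together were seen in 432 thinned cells of Tumor-AM (6.23%), *Apoe* alone in 1585, *Inhba* alone in 1023 and neither in 3897. *Spp1* stood at 1476 CPM (1457 to 1496) in cells with neither, 2146 CPM (2100.1 to 2192) with *Inhba* alone, 3441 CPM (3394 to 3488) with *Apoe* alone and 3815 CPM (3721 to 3910.2) with both. Each step exceeded counting error, which leaves out the spread between cells (variance over the mean of 25.2 for *Spp1* in Tumor-AM). *Hpse* stood at 11.1, 15.7, 54.0 and 60.9 CPM in the same order, and *Ecm1* at 52.1, 50.9, 143 and 164 CPM. For these genes the classes with *Apoe* stood apart from those without, and the interval of *Hpse* with both anchors (49.6 to 74.1) overlapped that with *Apoe* alone (48.3 to 60.2). *Tgm2* followed the other anchor, with 443 and 419 CPM in the classes without *Inhba* and 553 and 583 CPM in those with it. In Control-AM only 9 cells held both anchors.

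Correlations over thinned cells, on log2(UMIs + 1), are given as descriptions, since all cells of a library share its depth and free RNA. In the 6937 cells of Tumor-AM, Pearson's r was 0.37 for *Spp1* with *Fn1*, 0.30 with *Ecm1*, 0.29 with *Apoe*, 0.23 with *Hpse*, 0.19 with *F13a1*, 0.10 with *Inhba*, 0.05 with *Thbs1* and 0.04 with *Tgm2*. In the 5590 cells of Control-AM, r was 0.17 for *Spp1* with *Fn1*, 0.09 with *Inhba*, 0.02 with *Ecm1* and -0.03 with *Apoe*. A cell of Tumor-AM with *Spp1* also had an *Ecm1* UMI in 21.2% of cases against 8.22% of cells without *Spp1*, and an *F13a1* UMI in 11.3% against 2.71%. In Control-AM the share with *Ecm1* was 5.80% against 5.74%.

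Among 3022 genes at 50 CPM or more in Tumor-AM, the 10 most like *Spp1* by Pearson's r were *S100a6* (0.41), *Ctss* (0.41), *Wfdc17* (0.39), *Fn1* (0.37), *Ctsd* (0.36), *Fabp5* (0.36), *Fth1* (0.32), *Cd63* (0.32), *Lyz2* (0.32) and *Syngr1* (0.30), and all 10 were also among the first 10 by Spearman's rho. *Ctss* and *Ctsd* encode lysosomal cathepsins, *Fabp5* a fatty acid binding protein and *S100a6* a calcium-binding protein. The genes most like *Fn1* were *S100a6* (0.46), *Spp1* (0.37) and *S100a4* (0.33), and those most like *Ecm1* were *Ctss* (0.36), *S100a6* (0.36) and *Spp1* (0.30). *F13a1* was most like *S100a6*, *Fn1* and *Spp1* at 0.19 to 0.20, and *Hpse* most like *Fabp5*, *Ctss* and *Apoe* at 0.26 each. *Thbs1* was most like the interferon-induced *Ifitm3* (0.21), *Apoe* (0.20) and *Ifitm2* (0.11). *Tgm2* was most like *Cebpb* (0.17), *Mmp19* (0.15) and *Csf2rb* (0.14). *Ifitm2* and *Csf2rb* were not among the first 3 by Spearman's rho. The values for *F13a1*, *Thbs1* and *Tgm2*, at most 0.21, are too weak in sparse counts to be a finding.

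In Tumor-AM, cells rich in *Spp1*, and cells with at least 1 UMI of *F13a1* or *Hpse*, had less of the AM marker *Marco*. The AM markers *Chil3* and *Siglecf*, the only others examined singly by class, differed by smaller ratios. With 0, 1 to 4, 5 to 9, 10 to 19 and 20 or more *Spp1* UMIs, the thinned cells of Tumor-AM had *Marco* at 322, 289, 176, 102 and 24.7 CPM. Between the first and the last class *Chil3* went from 11386 to 8900 CPM and *Siglecf* from 129 to 68.6 CPM. The median of the summed AM marker level went from 16959 to 12534 CPM. The complement gene *C1qb*, from the interstitial macrophage list, was at 12.5, 5.91 and 38.3 CPM in the first, second and last class. In these classes 1.96%, 1.60% and 6.11% of cells carried markers of another type, whose part in these levels was not tested. *S100a6* went from 192 to 1142 CPM and *Fn1* from 480.4 to 1662 CPM between the first and the last class. In Control-AM the cells with 20 or more *Spp1* UMIs, 29 in number, had *Marco* at 907 CPM against 529 CPM in cells without *Spp1*. High *Spp1* thus went with low *Marco* in Tumor-AM and not in Control-AM, a difference that was not tested. In Tumor-AM, the 689 cells with *F13a1* had *Marco* at 14.1 CPM against 240.4 CPM and *Chil3* at 9440.5 CPM against 10897.5 CPM in the other cells. Their median AM marker level was 13326 CPM against 16288 CPM. The 515 cells with *Hpse* had *Marco* at 16.4 against 234 CPM and *Chil3* at 8713 against 10916 CPM.

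The 76 cells of Tumor-AM with most UMIs of a member were compared with the rest of that library. The 76 with most *Spp1*, with 241 to 797 UMIs each, had *Ecm1* at 265 against 84.2 CPM, *Hpse* at 129 against 27.1 CPM, *Apoe* at 4838 against 517 CPM and *Inhba* at 161 against 148 CPM. Of these cells 12 carried markers of another type, and their median depth was 18226 against 8229 UMIs. The 76 with most *Thbs1*, with 3 to 59 UMIs each, had *Apoe* at 9190.4 against 470.2 CPM and *C1qb* at 490 against 13.4 CPM, with a median AM marker level of 9946 against 15998 CPM. Of these cells 26 carried markers of another type, the most among the 3 members examined this way, and 17 of the 76 with most *Hpse* did. *Cd9*, which AMs express, was at 2616 CPM in the cells with most *Thbs1* against 3259 CPM in the rest. The part of other macrophages in the levels of *Thbs1* was not tested.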

How the data were processed

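Single-cell RNA-Seq of sorted AMs (10x Genomics 3′ chemistry) gave 1 table per library. The deposited values are raw UMI counts per gene and barcode, made by the authors with Cell Ranger. The submitters' processing notes name version 4.0.0, bcl2fastq 2.20 and mm10, whereas the methods name a later Cell Ranger version. The hashtag reads and the authors' Gaussian mixture filters were not used here, and barcodes were taken as cells of the library whose table lists them.

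With Python 3.11.15, numpy 2.4.6, scipy 1.17.1, pandas 2.3.3 and scanpy 1.11.5, UMIs were summed over the kept barcodes and expressed per 1000000. Genes with at least 10 UMIs in each group were counted as tested, and 2-fold was the limit for a count. Where a member with 4 to 9 UMIs in a group has a ratio, its interval is given. Intervals are exact Poisson, conditional binomial or Clopper-Pearson intervals at 95%. The code for the ratio intervals was tested on simulated Poisson counts. Those hold no spread between cells, so that the test cannot show how the intervals cover such spread. No p-value was computed, since cells are not replicates. Each cell was thinned once to 3800 UMIs (Tumor-AM, the shallower library, has its 10th percentile just above this), drawn without replacement, and alternatives that left out cells kept this draw. Doublets were kept in the values reported, and removing the 6% with the highest Scrublet scores was an alternative.

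Genes named are the members, *Apoe* and *Inhba*, the 10 genes most like *Spp1* and 3 most like each other member (at 50 CPM or more, neither ribosomal nor mitochondrial), and the 3 most abundant of each list, with any gene past 2-fold at 50 CPM or more, of which there was none. One of these is not reported here. Genes named for other reasons are marked or serve as markers of cell types. *Mepe*, *Rprd1b*, *Cd9* and the integrin chains listed for their low counts are named without such a mark. Members and lists were chosen with earlier results of these data known, and the rule for cells of other types was set after marker levels were seen. Positions are from GENCODE vM21.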

Additional observations from a re-analysis of the deposited data

How the results depend on the processing

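The log2 ratio of *Spp1*, Tumor-AM over Control-AM, was 2.12 and ranged over the alternatives from 1.92 (mean of each cell's CPM) to 2.18 (median-of-ratios scaling). It was 2.06 without cells carrying markers of other types, 2.08 with cells carrying neutrophil or epithelial markers left out too, 2.08 with ribosomal and mitochondrial UMIs left out of the scaling and 2.03 without the 1% of cells with most *Spp1*. The counts of genes at least 2-fold higher or lower, 556 and 668 at a minimum of 10 UMIs in each library, were 225 and 210 at a minimum of 100 and 1320 and 2054 at a minimum of 1. In Tumor-AM, the log2 ratio of *Spp1* beside *Apoe* was 1.30 unthinned, 1.43 at 3 or more *Apoe* UMIs, 1.15 without likely doublets and 1.09 without cells carrying markers of other types. That beside *Inhba* was 0.49 at 3 or more *Inhba* UMIs and 0.31 at 1000 genes and 5% mitochondrial UMIs. The cause of these shifts was not tested. No log2 ratio between the libraries or within Tumor-AM changed sign under these alternatives, whereas in Control-AM those of *Spp1* and *Tgm2* beside *Apoe* did in a second thinning (0.10 to -0.14 and -0.06 to 0.11). Of the members, 6 were past 2-fold, and 5 were so under the stricter filter and without cells of other types (under both rules), where *Thbs1* had 7 UMIs in Control-AM and was not counted. At a minimum of 100 UMIs, and without the 1% of cells with most UMIs of the gene, *F13a1*, *Hpse* and *Thbs1* are not counted either. No paired analysis was possible because each condition has 1 library, which also leaves every interval without animal-to-animal spread. *F13a1*, *Hpse* and *Thbs1*, with 25 to 47 UMIs in Control-AM, have the widest ratios.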
